A study of Mus musculus with 6 samples.

Results

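Neurexins are presynaptic adhesion proteins, and neuroligins, LRRTM proteins and calsyntenins are among the postsynaptic partners that bind them across the synaptic cleft. These pairs help to recruit vesicle release sites on one side and receptors on the other, and several of the genes are linked to autism. In the striatum they sit at glutamatergic inputs from cortex and thalamus and at GABAergic contacts between spiny projection neurons. The 9 genes described here were taken by name: the neurexin genes Nrxn2 and Nrxn3, the neuroligin genes Nlgn1, Nlgn2 and Nlgn3, Lrrtm1, Lrrtm2, the calsyntenin gene Clstn3, and Cntnap2, which encodes the neurexin family protein Caspr2 of the axonal potassium channel complex. They are 9 of 34745 genes listed, and all 9 were among the 15267 genes that passed the filter on low counts.

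RNA of the dorsal striatum was sequenced in 3 libraries of mice heterozygous for Ash1l (called Ash1l het) and in 3 libraries of wild type (WT) mice, all C57BL/6 and 1 year old. ASH1L methylates lysine 36 of histone H3, and a neurexin gene outside the 9 is a reported target of it. The sources used here do not give the mutation of the Ash1l het mice or say whether each library is a separate animal. The p-values therefore cover the spread between libraries only, and that spread may be technical. Library totals ran from 12080663 to 18798694 counts.

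Ash1l itself stood at 281, 198 and 253 CPM (normalised counts, scaled to library size) in Ash1l het replicates 1, 2 and 3 and at 308, 295 and 293 CPM in WT replicates 1, 2 and 3. The groups did not overlap, but the difference did not pass over all genes (log2 fold change -0.29, SE 0.13, edgeR adjusted p = 0.858). It was -0.16 (SE 0.09) without Ash1l het replicate 2, the lowest library. Without replicate 1 or 3 it was -0.41 (SE 0.13) or -0.32 (SE 0.15), and without replicates 1 and 2 it was -0.24 (SE 0.09). Ash1l het replicates 1 and 2 stood apart from the other 4 libraries on the first principal component, which held 27.2% of the variance. They were at -34.2 and -25.8, against 4.51 to 26.3 in the others. On the second component, with 25.1%, they lay at opposite ends, at 33.6 and -39.3. Values without them are given below, which leaves Ash1l het replicate 3, at 10.9 on the first component and within the WT range. Smaller differences without them are therefore partly built into this choice. Striatal markers were abundant in all 6 libraries but not at even levels. Ppp1r1b, which encodes DARPP-32, stood at 734 CPM in Ash1l het replicate 1 and between 1246 and 1466 CPM in the others. The dopamine receptor gene Drd1 stood between 301 and 348 CPM. Drd2, also a dopamine receptor gene, stood at 206 CPM in Ash1l het replicate 2 and between 364 and 419 CPM in the others. Slc17a7, a marker of cortical neurons, stood at 8.60 CPM in Ash1l het replicate 2 and between 20.7 and 53.2 CPM in the others.

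The adhesion genes tended to be lower in Ash1l het by amounts that did not pass the test. Of the 9 genes, 8 had a negative log2 fold change, with a median of -0.29 over the 9. Without Ash1l het replicates 1 and 2, which leaves 1 Ash1l het library, the median was -0.06 and 7 of 9 were lower by sign, where 50.8% of all genes were. In the fit to all 6 libraries, 48.6% of all genes tested were lower by sign and the median was 0.01. Among the 3386 genes whose WT mean lay between the lowest and highest of the 9, 60.9% were lower and the median was -0.04. By the quasi-likelihood test of edgeR 0 of the 9 passed at an adjusted p under 0.05, where 0.0131% of all genes did, and 3 (Lrrtm1, Clstn3 and Nlgn3) had an unadjusted p under 0.05 as lower, where 2.67% of all genes did. As higher, 0 of the 9 had an unadjusted p under 0.05, where 3.1% of all genes did. DESeq2 and limma-voom also called 0 of the 9. The same 3 genes were the ones whose Ash1l het libraries all lay below all WT libraries, which held for 5.53% of all genes, and for 0 of the 9 did all lie above, where 6.18% of all genes did. The two-sided exact permutation p was 0.1 for each of the 3, the smallest that 3 libraries against 3 can give.

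The promoters of 6 of the 9 genes were taken from the RefSeq set of 300-base windows (250 bases before and 50 after a start site, build GRCm38.p6). Those of Lrrtm1 and Clstn3 are shown because these genes had non-overlapping groups, and that of Nlgn2 because it holds the most CpG pairs among the windows taken. Capitals mark GGGCGG (the GC box) and TGACGTCA (the cyclic AMP response element), each searched on both strands.
Lrrtm1, chr6:77242227-77242526, plus strand: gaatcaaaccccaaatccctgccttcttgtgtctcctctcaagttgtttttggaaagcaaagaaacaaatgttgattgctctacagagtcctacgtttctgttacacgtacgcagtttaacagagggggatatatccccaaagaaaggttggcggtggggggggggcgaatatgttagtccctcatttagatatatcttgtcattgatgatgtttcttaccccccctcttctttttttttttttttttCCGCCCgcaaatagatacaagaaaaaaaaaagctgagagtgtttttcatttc
Clstn3, chr6:124464735-124465034, minus strand: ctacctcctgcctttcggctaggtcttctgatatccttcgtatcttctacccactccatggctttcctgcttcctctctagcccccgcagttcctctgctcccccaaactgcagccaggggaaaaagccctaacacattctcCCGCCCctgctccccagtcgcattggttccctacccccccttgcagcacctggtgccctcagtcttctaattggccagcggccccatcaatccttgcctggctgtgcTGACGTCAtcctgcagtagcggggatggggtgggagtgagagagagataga
Nlgn2, chr11:69837735-69838034, minus strand: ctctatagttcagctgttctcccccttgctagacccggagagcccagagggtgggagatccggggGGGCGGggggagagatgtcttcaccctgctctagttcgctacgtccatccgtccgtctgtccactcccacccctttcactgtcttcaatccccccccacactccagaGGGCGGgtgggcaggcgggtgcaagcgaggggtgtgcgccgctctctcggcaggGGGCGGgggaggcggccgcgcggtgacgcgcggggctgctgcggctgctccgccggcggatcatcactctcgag
The GC box was found in 35.7% and the cyclic AMP response element in 1.79% of all 32851 such windows. Lrrtm1 has 7 CpG pairs in its window, Clstn3 8 and Nlgn2 26, against a median of 7 over all windows. A second Clstn3 window, at chr6:124462695-124462994 on the minus strand, has 6 CpG pairs and holds neither motif. A match is only a match of letters, and these windows describe the genes without bearing on the difference between genotypes.

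Presynaptic neurexins come first. Nrxn2 (neurexin 2; chr19:6418731-6544169, plus strand) stood at 113, 148 and 181 CPM in Ash1l het and at 177, 201 and 173 CPM in WT. Ash1l het replicates 1 and 2 were below every WT library and replicate 3 was within the WT range. The log2 fold change was -0.32 (SE 0.16), with an edgeR adjusted p of 0.878. It was -0.16 (SE 0.13) without Ash1l het replicate 1, -0.49 (SE 0.14) without replicate 3 and -0.02 (SE 0.11) without replicates 1 and 2. The fitted level was 80.3% of WT, with a 95% interval from 62.1% to 104%. Nrxn3 (neurexin 3; chr12:88722876-90334935, plus strand) stood at 342, 242 and 347 CPM in Ash1l het and at 324, 329 and 329 CPM in WT. Replicate 2 alone was low, and the other Ash1l het libraries lay above all WT libraries. Its log2 fold change was -0.08 (SE 0.14), and without Ash1l het replicate 2 it changed sign to 0.07, and without replicate 1 or 3 it was -0.15 or -0.17. Counts are of whole genes, so the long alpha and short beta forms that each neurexin gene makes from separate promoters cannot be told apart.

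The 3 neuroligins differed from each other in their pattern over libraries. Nlgn1 (chr3:25426215-26332460, minus strand), the neuroligin of excitatory synapses, stood at 129, 67.8 and 123 CPM in Ash1l het and at 122, 75.0 and 117 CPM in WT. The second replicate of each genotype was low, and the groups overlapped fully (log2 fold change 0.03, SE 0.29). Leaving out WT replicate 2 gave -0.17 for Nlgn1, and leaving out Ash1l het replicate 2 gave 0.27, so its sign rested on single libraries. Its coefficient of variation was 31.8% in Ash1l het and 24.8% in WT, the highest of the 9 genes in both groups. The fitted interval ran from 63.4% to 164% of WT, so a change of either sign of that size was not detectable in this fit. With a replicate block, which holds only if the numbers pair the libraries, the log2 fold change was 0.002 (SE 0.11). Nlgn2 (chr11:69823122-69837784, minus strand), the neuroligin of inhibitory synapses, stood at 141, 188 and 194 CPM in Ash1l het and at 194, 219 and 194 CPM in WT. Ash1l het replicate 1 was the low library, and replicate 3 was within the WT range (log2 fold change -0.22, SE 0.14, edgeR adjusted p = 0.889). Without Ash1l het replicate 1 the difference was -0.08 (SE 0.10), and without replicates 1 and 2 it was -0.06 (SE 0.10). Without Ash1l het replicate 3 it was -0.30 (SE 0.15).

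Nlgn3 (chrX:101299168-101325963, plus strand), found at both synapse types, stood at 97.2, 99.8 and 131.7 CPM in Ash1l het and at 132.1, 135 and 136 CPM in WT. Replicates 1 and 2 were well below WT, while replicate 3 was just below the lowest WT library. The log2 fold change was -0.29 (SE 0.13), with an unadjusted edgeR p of 0.0485 and an adjusted p of 0.858. Without Ash1l het replicate 3 it was -0.45 (SE 0.10), and without Ash1l het replicates 1 and 2 it was -0.03 (SE 0.09). Nlgn3 is X-linked, and the protocol describes male mice, but Xist, the RNA of the inactive X chromosome, ran from 1956 to 2957 CPM over the 6 libraries. Of the genes on the Y chromosome, Ddx3y, Uty and Eif2s3y had 0 counts throughout, and Kdm5d had 1 count in a single WT library.

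Among the other neurexin ligands, Lrrtm1 had the lowest fold change of the 9. Lrrtm1 (chr6:77242689-77257791, plus strand) encodes a leucine-rich repeat protein of excitatory postsynaptic membranes. It stood at 35.7, 35.4 and 46.0 CPM in Ash1l het and at 48.3, 57.5 and 54.0 CPM in WT, so all 3 Ash1l het libraries were below all WT libraries. The log2 fold change was -0.45 (SE 0.13), with an unadjusted edgeR p of 0.00809 and an adjusted p of 0.801, and the level was 73.3% of WT (95% interval 59.5% to 90.3%). It ranked 151 of 15267 genes by p. The value lay between -0.59 and -0.38 with each library left out in turn, and was -0.21 (SE 0.13) without both Ash1l het replicates 1 and 2.

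Lrrtm2 (chromosome 18, minus strand), which binds neurexins and helps to hold AMPA receptors at synapses, stood at 116, 91.9 and 127 CPM in Ash1l het and at 145, 147 and 118 CPM in WT. Replicate 3 of each genotype fell inside the range of the other group (log2 fold change -0.29, SE 0.14, edgeR adjusted p = 0.875). Lrrtm2 was at -0.17 (SE 0.12) without Ash1l het replicate 2 and at -0.10 (SE 0.14) without replicates 1 and 2. It was at -0.40 (SE 0.15) without Ash1l het replicate 3 and at -0.39 (SE 0.16) without WT replicate 3. Clstn3 (calsyntenin 3; chr6:124430759-124464794, minus strand), a cadherin-like postsynaptic organizer, stood at 167, 159 and 204 CPM in Ash1l het and at 206, 218 and 234 CPM in WT. All 3 Ash1l het libraries were below WT, with replicate 3 close to the lowest WT value. Its log2 fold change was -0.31 (SE 0.12), with an unadjusted edgeR p of 0.0290 and an adjusted p of 0.857. It was -0.43 (SE 0.10) without Ash1l het replicate 3, -0.24 (SE 0.11) without replicate 2 and -0.10 (SE 0.10) without replicates 1 and 2.

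Cntnap2 (chr6:45060061-47304213, plus strand) stood at 122, 95.2 and 105 CPM in Ash1l het and at 113, 119 and 118 CPM in WT. Replicate 1 was above and replicates 2 and 3 below every WT library. The difference was small (log2 fold change -0.12, SE 0.11, edgeR adjusted p = 0.910), with a 95% interval from 77.1% to 110% of WT. It was -0.22 (SE 0.10) without Ash1l het replicate 1, -0.04 (SE 0.10) without replicate 2 and -0.15 (SE 0.09) without both.

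**Figure D1:**
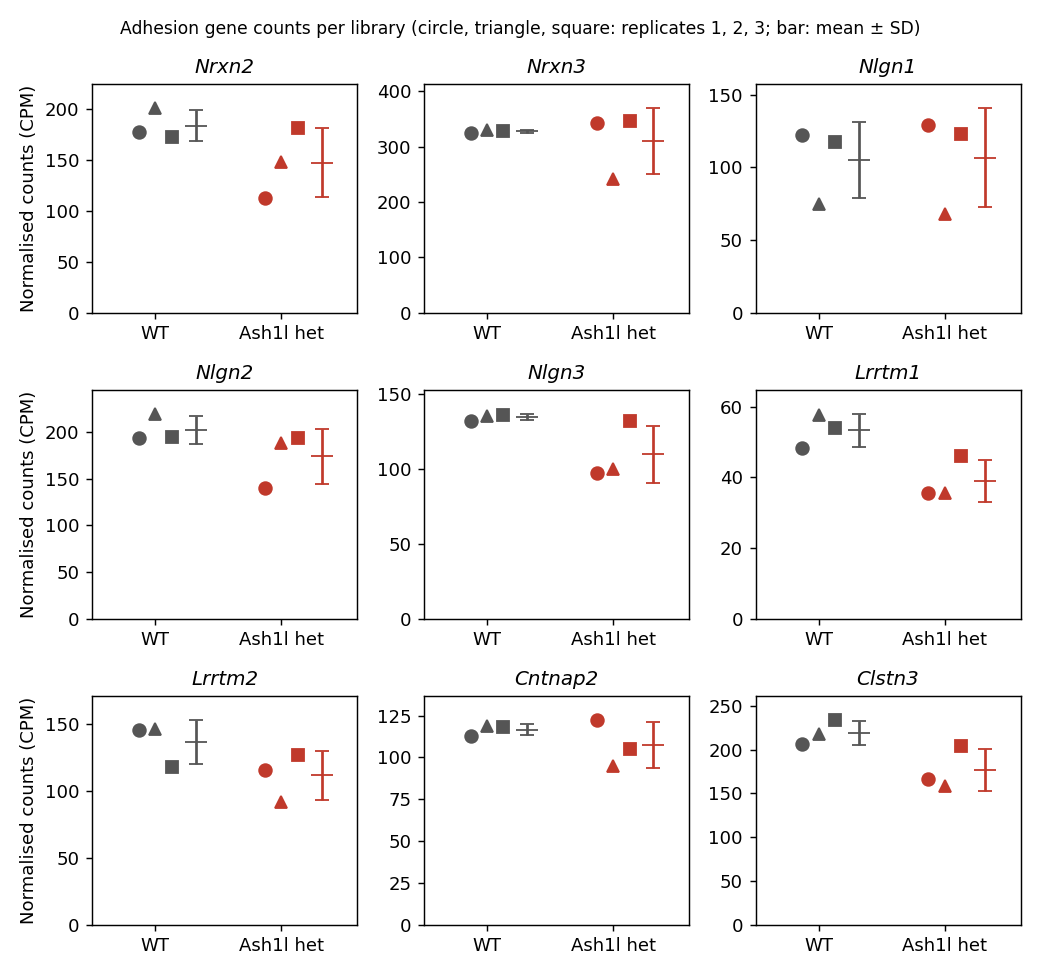
Normalised counts (CPM) of the 9 adhesion genes in WT (grey) and Ash1l het (red) libraries; circles, triangles and squares are replicates 1, 2 and 3, the bars give mean ± SD, and each axis starts at 0. The Ash1l het points lie below all WT points for Nlgn3, Lrrtm1 and Clstn3, and the triangle is low in both groups for Nlgn1.

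The low values were unevenly spread over the Ash1l het libraries. In Ash1l het replicate 2 all 9 genes were below every WT library, where 32% of all genes were, and 0 were above, where 33.2% of all genes were. In replicate 1, 6 of 9 were below (32.9% of all genes) and 3 above (32.9% of all genes), the 3 being Nrxn3, Nlgn1 and Cntnap2. In replicate 3, 4 of 9 were below (25.6% of all genes) and 2 above (25.5% of all genes). All 9 genes lay in the highest quartile of tested genes by WT mean, so these shares of all genes are not matched for abundance. On the log2 scale centred over the 6 libraries, the median gene of that quartile stood at 0.02, -0.09 and 0.03 in Ash1l het replicates 1, 2 and 3. The median gene of the lowest quartile stood at 0.04, 0.13 and -0.02. Together the 9 genes summed to 1263, 1127 and 1458 CPM in Ash1l het and to 1462, 1500 and 1473 CPM in WT. Replicate 3 of Ash1l het was just below the lowest WT sum, and the other Ash1l het libraries were well below it.

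The values in Ash1l het replicate 1 were set beside transcript GC content. The GC content of the longest transcript was 62.4% for Nrxn2, 60.7% for Nlgn2, 56.5% for Clstn3 and 54.7% for Lrrtm1, and these 4 fell in the highest GC quartile of all tested genes. In that quartile the median gene stood at -0.19 in Ash1l het replicate 1 on the log2 scale centred over the 6 libraries, and between 0.01 and 0.08 in the other 5 libraries. In the lowest GC quartile, which holds Lrrtm2, Nlgn1 and Cntnap2 at 38.4%, 38.9% and 44.5%, the order was turned, with Ash1l het replicate 1 at 0.11. Over all genes 68.2% of the highest quartile and 28.6% of the lowest were lower in Ash1l het by sign. Nrxn2 and Nlgn2, the 2 members of highest GC, stood at -0.53 and -0.41 in Ash1l het replicate 1, and Nlgn1 at 0.34. Other members lay apart from their quartile there: Lrrtm2 stood at -0.08 against 0.11, and Nlgn3, of the second quartile, at -0.31 against 0.07.

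**Figure D2:**
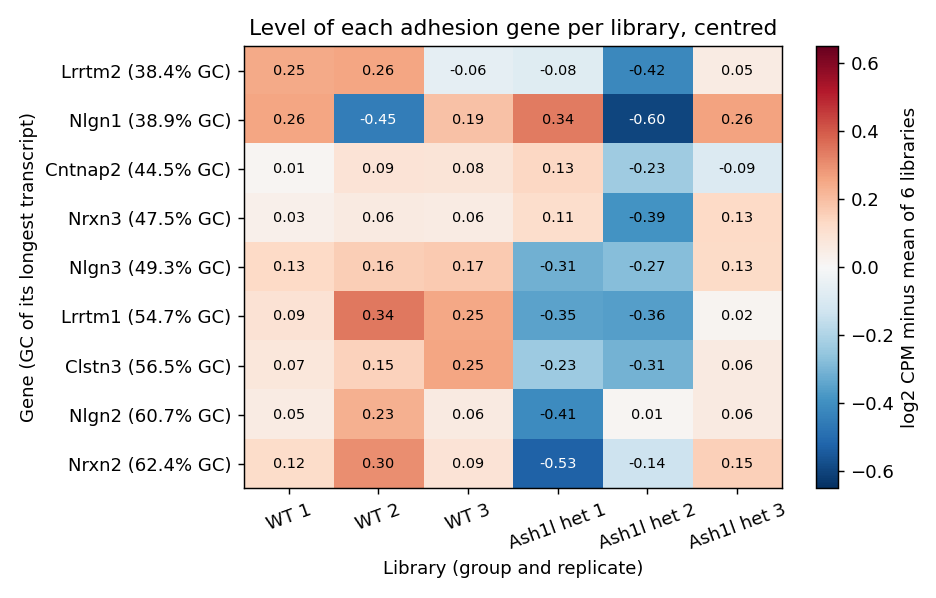
Centred log2 CPM (level minus the mean of the 6 libraries) of each adhesion gene in each library, with genes ordered from low to high GC of the longest transcript. Ash1l het replicate 1 runs from 0.34 for Nlgn1 to -0.53 for Nrxn2, and Ash1l het replicate 2 is lowest for Nlgn1, at -0.60.

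**Figure D3:**
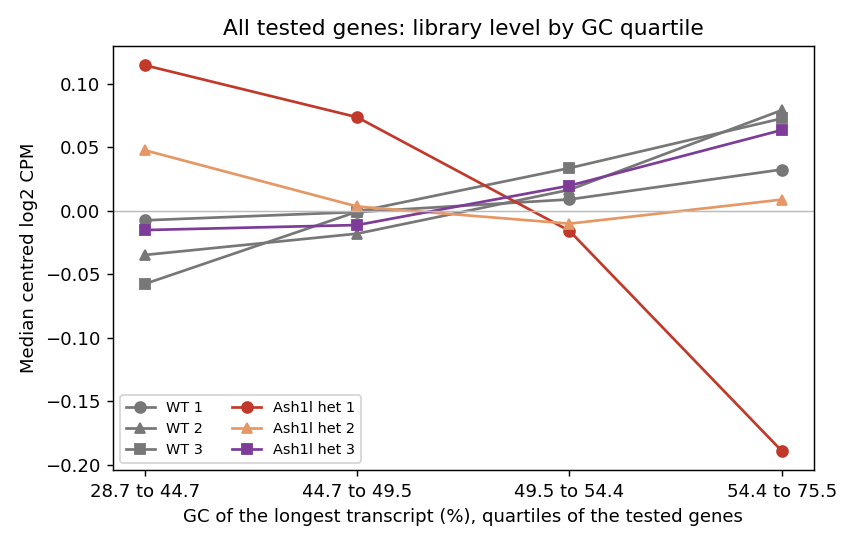
Median centred log2 CPM of all tested genes in 4 quartiles of transcript GC content, 1 line per library. Ash1l het replicate 1 falls from 0.11 in the lowest quartile to -0.19 in the highest, while the WT libraries (grey) rise.

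A fit that took the median of 20 GC bins in each library as an offset, chosen after the data were seen, changed the values of single genes. Such offsets also take out any genotype difference that runs with GC content. Nlgn2 moved from -0.22 to -0.04 (SE 0.09) and Nrxn2 from -0.32 to -0.15 (SE 0.10). Lrrtm2 moved the other way, from -0.29 to -0.39 (SE 0.14), and Cntnap2 from -0.12 to -0.19 (SE 0.10). Nlgn1 changed sign, to -0.09 (SE 0.31). Lrrtm1, at -0.38 (SE 0.12), Nlgn3, at -0.30 (SE 0.13), and Clstn3, at -0.24 (SE 0.11), kept their direction. Over the 9 genes the median was -0.19, 9 were lower by sign, 4 (Lrrtm1, Lrrtm2, Nlgn3 and Clstn3) had an unadjusted edgeR p under 0.05 as lower, where 2.45% of all genes did, and 0 passed after adjustment (smallest adjusted p = 0.909).

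**Figure D4:**
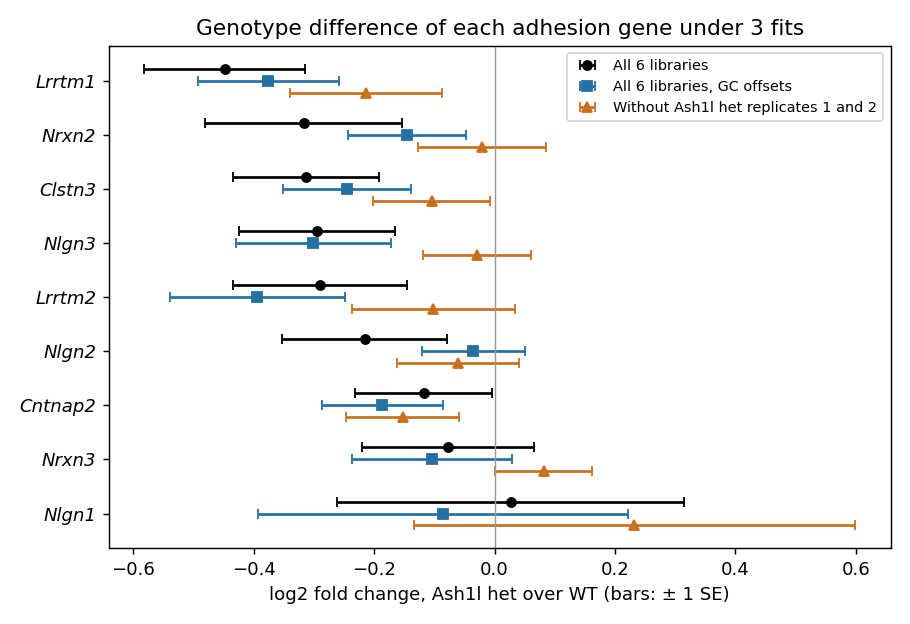
Log2 fold change (Ash1l het over WT, ± 1 SE) of each adhesion gene in the fit to all 6 libraries (black), with GC offsets (blue) and without Ash1l het replicates 1 and 2 (orange). Lrrtm1 lies at -0.45, -0.38 and -0.21 in the 3 fits, and Nlgn2 at -0.22, -0.04 and -0.06.

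In Ash1l het replicate 2 low members were found in every quartile of gene span. The genes Cntnap2, Nrxn3, Nlgn1 and Nrxn2 span 2244, 1612, 906 and 125 kb and lay in the longest quartile of tested genes. The median gene of that quartile stood at -0.08 in Ash1l het replicate 2, on the centred log2 scale. Those of the third, second and shortest quartiles stood at 0.01, 0.05 and 0.11. Nlgn1, Nrxn3 and Cntnap2 stood at -0.60, -0.39 and -0.23 in that library, and Nrxn2 at -0.14. In the third quartile Clstn3 and Nlgn3 stood at -0.31 and -0.27, and in the second Lrrtm1 and Nlgn2 at -0.36 and 0.01. Lrrtm2, the member of the shortest quartile, stood at -0.42. The part of gene span in these values was not tested.

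Markers of neurons and other cell types were measured in the same libraries. Of 15 spiny projection neuron markers 11 were lower by sign (median log2 fold change -0.15, 0 passed). Tac1, the substance P gene, had 0.42 (SE 0.10), Bcl11b, a transcription factor gene, -0.33 (SE 0.14) and Adora2a, an adenosine receptor gene, -0.42 (SE 0.18). The sum of the 15 was 9914 to 12257 CPM in Ash1l het and 10795 to 11854 CPM in WT. Of 10 general neuron markers 7 were lower by sign (median -0.17, 0 passed), with sums of 3901 to 4906 CPM in Ash1l het and 4386 to 4683 CPM in WT. Ash1l het replicate 2 had the lowest general neuron sum of the 6 libraries, while the spiny neuron sum was lowest in Ash1l het replicate 1. The level of Gfap, the astrocyte intermediate filament, was highest in Ash1l het replicate 2, at 733 CPM against 62.1 to 412 CPM in the others. The sum of the astrocyte markers was highest in Ash1l het replicate 1, at 5316 CPM, with replicate 2 at 5224 CPM. Oligodendrocyte markers summed to 5998 to 8880 CPM in Ash1l het and 5924 to 7353 CPM in WT, and 9 of 10 were higher by sign (0 passed). Markers of astrocytes summed to 3764 to 5316 CPM in Ash1l het and 4133 to 5063 CPM in WT. The 5 blood cell genes summed to 123, 110 and 56.1 CPM in Ash1l het and to 23.0 to 35.4 CPM in WT. By sign, 6 of 10 astrocyte, 3 of 6 oligodendrocyte precursor, 4 of 10 microglia, 2 of 12 vessel and 1 of 8 cortical neuron markers were lower, and 0 of these passed. None of the markers was at 0 in all libraries. In bulk tissue, fewer cells of a type and less RNA per cell cannot be told apart, and the part of these markers in the adhesion gene values was not tested.

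Per length, the levels of the 9 genes in WT were ordered by FPKM (the authors' counts scaled to gene length and library total). Clstn3 was highest at 34.9 ± 2.30 FPKM (SD, n = 3), followed by Nlgn2 at 27.5 ± 1.41, Lrrtm2 at 23.7 ± 2.72, Nrxn3 at 14.6 ± 0.239 and Nlgn3 at 12.1 ± 0.245 FPKM. Nrxn2 at 8.59 ± 0.530, Cntnap2 at 6.63 ± 0.141, Lrrtm1 at 5.96 ± 0.416 and Nlgn1 at 5.33 ± 1.41 FPKM were lower. Of neighbours in this order, the WT libraries overlapped for Lrrtm1 and Nlgn1 alone. The order depends on the gene length behind FPKM: for Lrrtm1 the deposited values imply 8793 bases, while its exons in the GENCODE annotation cover 3033 bases. Per kilobase of GENCODE exon, Lrrtm1 was the fifth of the 9 in WT, at 17.6 ± 1.52 CPM per kilobase, Nrxn3 came before Lrrtm2 (26.0 ± 0.237 and 22.7 ± 2.74), and Clstn3, Nlgn2 and Nlgn1 kept the first, second and last place. Differences between genotypes are within a gene and do not use its length.

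Other genes lie over some members. Lrrtm1 lies within Ctnna2 on the opposite strand with 0 exonic bases shared, and Ctnna2 stood between 91.3 and 107 CPM with overlapping groups. Lrrtm2 lies within Ctnna1, also on the opposite strand, with 95 exonic bases shared. The antisense gene A830092H15Rik shares 1229 exonic bases with Nlgn1 and stood at a mean of 7.93 CPM against 106 CPM for Nlgn1. The most exonic bases, 3823, are shared by Nlgn3 and Gm21986 on the same strand, at means of 122 and 0.93 CPM. Nrxn2 and Slc22a12, on opposite strands, share 682 exonic bases and stood at means of 165 and 0.24 CPM. The sources used here do not say if strand was used in counting.

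Of 20 other neurexin ligands, receptors and secreted partners 18 were tested: 13 were lower by sign, 5 higher, and 0 passed (median log2 fold change -0.21). For 5 of the 18 all Ash1l het libraries were below all WT libraries, which held for 5.53% of all genes. For 0 of the 18 did all lie above, where 6.18% of all genes did. The 3 with the smallest p were Adgrl2, Dag1 and Lrrtm4. Adgrl2, a latrophilin adhesion receptor, stood at 92.4, 80.8 and 94.7 CPM in Ash1l het and at 123, 119 and 110 CPM in WT. Its log2 fold change was -0.39 (SE 0.11), with an edgeR adjusted p of 0.741, and here Ash1l het replicate 3 was the highest of its group and still well below WT. Dag1, which encodes dystroglycan, had -0.46 (SE 0.14) and Lrrtm4, a paralogue of Lrrtm1, -0.61 (SE 0.20), also with non-overlapping groups. Their margins were small. The highest Ash1l het and lowest WT libraries stood at 115 and 117 CPM for Dag1 and at 9.46 and 9.62 CPM for Lrrtm4.

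Presynaptic partners of neurexins and partners of neuroligins had smaller medians. Of 10 presynaptic partners of neurexins 5 were lower and 5 higher by sign (median -0.03, 0 passed). The PDZ protein genes Lin7c and Lin7a of the CASK complex had values of 0.23 (SE 0.10) and 0.31 (SE 0.14), and Ppfia3, a liprin gene, of -0.14 (SE 0.11). Of 12 neuroligin partners 10 were lower and 2 higher by sign (median -0.06, 0 passed). The scaffold gene Dlg4, which encodes PSD-95, had -0.24 (SE 0.15), the neuroligin inhibitor gene Mdga1 -0.13 (SE 0.17) and the inhibitory synapse gene Iqsec3 -0.11 (SE 0.14).

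Among 30 other synaptic organizers 19 were lower and 11 higher by sign (median -0.04, 0 passed). Ptprf, a receptor phosphatase of presynaptic membranes, had -0.28 (SE 0.12), Lrfn4 -0.43 (SE 0.22) and Flrt2, a latrophilin ligand, 0.24 (SE 0.14). Of 16 genes of the Cntnap family and its axonal complex 7 were lower and 9 higher by sign (median 0.03, 0 passed). Cntnap1, which encodes Caspr of the paranode, had -0.17 (SE 0.10), Cntnap5a 0.16 (SE 0.12) and Lgi1, a secreted ligand of ADAM22, 0.37 (SE 0.29). Of 13 tested splicing factors and shedding proteases that act on neurexins and neuroligins 6 were lower and 7 higher by sign (median 0.02, 0 passed). Nova2, Rbfox3 and Rbfox1, all neuronal splicing factors, had -0.37 (SE 0.15), -0.29 (SE 0.13) and -0.15 (SE 0.11).

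The median profile of the 9 genes over the libraries stood at -0.23, -0.31 and 0.06 in Ash1l het and at 0.09, 0.16 and 0.09 in WT, on the centred log2 scale. Of the 9, Nlgn3 and Clstn3 were nearest to it, with root-mean-square differences of 0.059 and 0.069, and Nlgn1 was farthest at 0.38. Among 9543 other genes with a mean of at least 10 CPM the median difference from this profile was 0.22. The nearest were Kcnab1, a potassium channel beta subunit (0.028), Sept5, a septin (0.035), Elfn2 (0.039), Dnajb5 (0.040) and the transcription factor gene Rfx1 (0.041). Over 6 libraries this is a likeness of pattern only. For Kcnab1 the log2 fold change was -0.27 (SE 0.12), and it did not pass either (edgeR adjusted p = 0.858).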

How the data were processed

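The authors deposited raw counts per gene for 6 libraries, and FPKM values for the same genes, in 1 table with GRCm38 coordinates. Per-sample files held the same counts. Per the labels' protocols the library kit was a stranded one for mRNA. HISAT2, StringTie, edgeR, CASAVA and FastQC appear in the submitters' processing notes without role or version.

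Counts were tested in edgeR 4.0.16 under R 4.3.3 (quasi-likelihood test, robust, TMM scaling, default filter with a minimum count of 10, genotype as the only term), with Benjamini-Hochberg adjustment over all 15267 genes tested and a threshold of 0.05. CPM are on the TMM scale. Alternatives were DESeq2 1.42.0, limma-voom (limma 3.58.1), RLE and upper-quartile scaling, 2 filters, limma on log2(FPKM + 0.1) and log2(FPKM + 1), a replicate block and each library left out. GC offsets, removal of 2 libraries together and removal of mitochondrial genes were added after the data were seen. Steps were tested on simulated data. Members and lists were chosen with earlier results of these data known. By rule the named genes are the 9 members, Ash1l, up to 3 genes of each list by smallest p and the 5 nearest profiles. Of the marker lists only spiny neuron genes and Gfap are named so, and the rest are given by counts and sums. Ppp1r1b, Drd1, Drd2, Slc17a7, Xist, the Y-linked genes and the genes overlapping members were named after their values were seen. Gene features came from GENCODE M21 (GRCm38), found for 15197 of the 15267 genes. Intervals cover the spread between libraries.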

Additional observations from a re-analysis of the deposited data

How the results depend on the processing

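None of the 9 adhesion genes passed in any of the 18 alternatives (smallest adjusted p = 0.200, for Lrrtm1 without Ash1l het replicate 3), and 156 of 162 member values kept their sign. The sign changed for Nlgn1 with GC offsets (-0.086) and with single libraries left out (range -0.17 to 0.27), and for Nrxn3 without both Ash1l het replicates 1 and 2 (0.082) and with single libraries left out (-0.17 to 0.072, the latter without Ash1l het replicate 2). The number of members lower by sign ran from 7 to 9. Over all genes the test called 2 genes, 2 higher and 0 lower. DESeq2 called 35 (22 higher, 13 lower), and the fit without both Ash1l het replicates 1 and 2 called 50 (22 higher, 28 lower); that fit rests on 1 Ash1l het library, assumed to vary like the WT libraries. With single libraries left out the calls ran from 1 to 13 (1 to 9 higher, 0 to 5 lower). The cause was not tested.

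Equal replicate numbers showed no clear pairing of the libraries. Over all genes, deviations from the group means correlated at 0.04, -0.07 and 0.01 for numbers 1, 2 and 3. Not every library correlated best with its own number. With 3 libraries a group these values cannot exclude a pairing. With a replicate block 3 genes were called, 0 of them members, and the Lrrtm1 log2 fold change was -0.45. With 3 libraries a group the SE of the member log2 fold changes ran from 0.11 to 0.29, and this spread, not counting error, limits what can be detected at these depths.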
